A study of Mus musculus with 60 samples.

Results

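The colon transcripts of 5 mice with collagen-induced arthritis (CIA) were compared with those of 5 naïve mice at ZT0, the hour at which the lights came on in a cycle of 12 h of light and 12 h of darkness. These 10 libraries, 1 per mouse, were all that the labels placed at this time point among the 60 of the series, and 16783 of 27179 deposited genes passed a filter on low counts. All mice were males of the DBA/1 strain, and CIA was induced at an age of 9 to 10 weeks with bovine type II collagen in complete Freund's adjuvant (1 mg/ml) on day 0 and a second dose of the collagen in saline, without adjuvant, on day 21, both at ZT6. Naïve mice were housed with the arthritic mice and sampled at matched times, and their age was not given separately. Mid-colon was sampled as a piece of 5 mm, 7 days after the first symptoms, with its muscle wall, nerves, mucosa and immune cells, so fewer cells of a type and less RNA per cell cannot be told apart in any value below. The CIA mice received adjuvant and antigen together on day 0, and no group received the adjuvant alone.

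In CIA, immunity to type II collagen, the main collagen of cartilage, produces swollen joints, and the gut is not the target tissue. The colon wall has an inner mucosa, whose epithelium absorbs water and secretes mucus and which houses IgA-producing plasma cells and macrophages. Its outer coat of smooth muscle holds part of the neurons and glia of the enteric nervous system between its layers. Plasma cells secrete IgA, which the epithelium carries into the lumen. Most colon cells also hold a circadian clock, in which ARNTL (BMAL1) and CLOCK drive the Period, Cryptochrome and Rev-erb genes, whose proteins in turn repress the activators or their genes. The comparison asks how the colon of arthritic mice differs at the start of the rest phase.

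Total counts lay between 31382664 and 61425974 per library. Levels are given in CPM, counts per 1000000 counts after scaling of the libraries by trimmed means of M-values, in the order of replicates 1 to 5 where 5 values are given, or as mean ± SD (n = 5 mice per group). Gene numbers come from the deposited table and positions from GRCm38.p6. A positive log2 fold change means a higher level in CIA mice, and its standard error (SE) was taken from the F statistic. The colon markers Cdx1, Cdx2 and Muc2 were present in all 10 libraries (Cdx1 at 262 to 419 CPM), while the small intestine markers Apoa4 and Defa24 and the pancreas markers Prss2 and Pnlip were at or near 0. Other markers of these tissues were not: Fabp6 and Sis, of the small intestine, lay at 1.32 to 17.9 and 0 to 16.2 CPM, both highest in naïve replicate 5. The elastase gene Cela1, listed with the pancreas, lay at 49.5 to 302 CPM, while Prss2 and Pnlip reached no more than 0.249 and 0.0410 CPM. The source of the Cela1 RNA was not tested. Some libraries stood apart from their group. CIA replicate 3 lay among naïve libraries on the first principal component (38.5, against −46.7 to −30.9 in the other 4 CIA libraries and 13.1 to 70.7 in naïve replicates 1 to 4), and its mean correlation was 0.960 with its own group and 0.972 with the other. Naïve replicate 5 lay among the CIA libraries (−43.5) and was the library with skeletal muscle RNA: Myh4, a myosin of fast skeletal muscle, stood at 37.8 CPM there and at no more than 0.317 CPM in the other 9. The medians of lists are therefore given with these libraries and, where leaving 1 of them out moved a median by over 1.5 times or changed its sign, without it.

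No gene passed an adjusted p of 0.05 in edgeR with all 10 libraries. In its quasi-likelihood F test, 0 of 16783 genes were higher and 0 lower in CIA mice (0% in each direction), and the smallest adjusted p was 0.136. At an unadjusted p under 0.05 there were 1809 genes with the higher (10.8%) and 978 with the lower level in CIA (5.83%), or 16.6% in all. The median log2 fold change over all genes was −0.024. The 5 CIA values all lay above the 5 naïve values for 281 genes (1.67%) and all below for 173 (1.03%). Counts of calls depended on the test and on a library. DESeq2 called 584 genes higher (3.48%) and 150 lower (0.894%) in the same libraries, and edgeR without CIA replicate 3 called 347 of 16911 genes higher (2.05%) and 100 lower (0.591%). Without naïve replicate 5, edgeR called 0 genes in either direction, with 2467 and 1432 at an unadjusted p under 0.05. Adjusted p values without CIA replicate 3 are given below for some genes. That library was singled out from these same values, and none of those genes passed without naïve replicate 5. Of the 734 genes that DESeq2 called, 322 were among the 447 called by edgeR without CIA replicate 3. The gene lists were chosen with earlier results of these data known, so the shares of their members given below describe the lists and test nothing. They are to be read beside these percentages, and no gene is said to have risen or fallen in the 10 libraries.

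**Figure D1:**
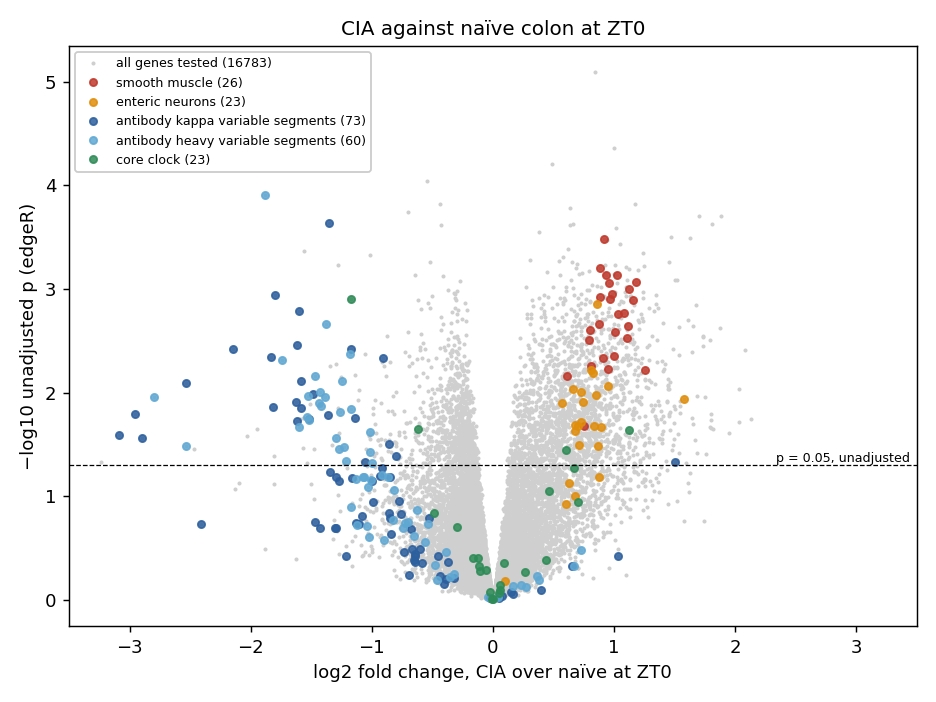
Log2 fold change (CIA over naïve at ZT0, x axis) and −log10 of the unadjusted p from edgeR (y axis) of the 16783 genes tested, with members of 5 gene lists in colour and a dashed line at the unadjusted threshold of 0.05. All 26 smooth muscle genes lie to the right above the line, and most antibody variable segments lie to the left. The lists were chosen with earlier results of these data known.

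The named genes with the smallest p values come first. They were picked by p, so the separation of their groups follows in part from the choice. Cttnbp2 (gene 30785, chromosome 6, 18366471 to 18515217), which encodes a cortactin-binding protein, stood at 40.3, 52.5, 32.9, 40.6 and 43.3 CPM in CIA mice and at 23.4, 23.6, 22.9, 22.3 and 24.3 CPM in naïve mice. The groups did not overlap, and the naïve values lay within 2 CPM of each other. Its log2 fold change was 0.85 with an SE of 0.11 (adjusted p = 0.136; 0.92 and adjusted p = 0.0173 without CIA replicate 3). Itgb3 (gene 16416, chromosome 11, 104608000 to 104670476), the beta subunit of an integrin receptor for vitronectin, stood at 61.2, 75.1, 55.2, 68.2 and 95.1 CPM in CIA mice and at 35.4, 37.4, 41.9, 26.95 and 35.5 CPM in naïve mice. CIA replicate 5 was the highest and all CIA values exceeded all naïve ones, for a log2 fold change of 1.00 with an SE of 0.15 (adjusted p = 0.175). Itgb3 was also 1 of 2 genes called higher (0.0111% of 18057) when the ZT0 contrast was taken from a fit of all 60 libraries, with an adjusted p = 0.00244.

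Impact, a regulator of the translational stress kinase GCN2, lay at 39.9 to 49.5 CPM in CIA and 28.9 to 34.002 CPM in naïve mice (log2 fold change 0.49, SE 0.078). Nipal4, a putative magnesium transporter gene, lay at 9.77 to 15.02 against 4.33 to 8.51 CPM (1.17, SE 0.21 on the log2 scale). Sh3bgr, a gene of heart and skeletal muscle, lay at 37.2 to 55.3 against 26.7 to 36.4 CPM, and Prr33 at 12.6 to 16.4 against 7.65 to 10.495 CPM. In these 4 genes, too, the groups did not overlap, and each had an adjusted p = 0.175.

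On the side of lower levels, Inpp5j (gene 170835, chromosome 11, 3494272 to 3505501), a phosphatase of phosphoinositides, stood at 121, 109, 145, 123 and 115 CPM in CIA mice and at 168, 199, 176, 186 and 161 CPM in naïve mice. CIA replicate 3 came closest to the naïve range without reaching it. The log2 fold change was −0.54 with an SE of 0.090 (adjusted p = 0.175), and with Bphl it was 1 of 2 genes called lower in the fit of 60 libraries (0.0111%; adjusted p = 0.0447 for each). Bphl, a hydrolase of mitochondria, lay at 21.3 to 23.5 CPM in CIA and 26.1 to 33.4 CPM in naïve mice. Areg, which encodes the epidermal growth factor receptor ligand amphiregulin, lay at 13.6 to 17.9 against 19.5 to 28.9 CPM, a log2 fold change of −0.70 (SE 0.13). Card10, an adaptor of NF-κB signalling, lay at 30.7 to 37.96 against 42.3 to 50.4 CPM (−0.44, SE 0.078). The last 2 of the 6 lower genes with the smallest p, the antibody segment Igkv3-12 and the monocyte gene Ly6c2, are described with their lists.

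Genes of the muscle coat lay higher in CIA mice, though none passed in edgeR with all 10 libraries. All 26 smooth muscle genes had the higher mean in CIA mice and an unadjusted p under 0.05, against 10.8% of all genes. In 13 of the 26 the groups did not overlap, against 1.67%. As the list was chosen with earlier results of these data known, these shares are a description and not a test of the list. Their median was 1.95-fold (0.96 on the log2 scale, against −0.024 for all genes), with members from 0.61 to 1.26. The summed level of the list was 36288, 58428, 28156, 45319.6 and 45392 CPM in CIA mice and 26360.3, 20599.8, 24531, 12189.8 and 23368 CPM in naïve mice. CIA replicate 3 had the lowest CIA sum and naïve replicate 4 the lowest of all, and the groups did not overlap. DESeq2 called 25 of the 26 genes higher (3.48% of all genes), and edgeR without CIA replicate 3 called 17 (2.05%). The median was 1.09 without CIA replicate 3 and 1.02 without naïve replicate 5.

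The actin of smooth muscle, Acta2 (gene 11475, chromosome 19, 34240336 to 34255585), stood at 3167, 4590.4, 2828, 3835 and 4177 CPM in CIA mice and at 2328, 1765, 2291, 1171 and 2170.1 CPM in naïve mice. The lowest CIA value, in replicate 3, was above the highest naïve value, in replicate 1. The means were 3719.7 ± 721 and 1945 ± 487 CPM, with a log2 fold change of 0.94 with an SE of 0.20 (adjusted p = 0.175 in edgeR and 0.00189 in DESeq2). Pgm5 (gene 226041, chromosome 19, 24678261 to 24861842), a protein of the plaques that anchor the contractile filaments, stood at 361, 563, 382, 395 and 457 CPM in CIA mice and at 296, 233, 245, 146 and 219 CPM in naïve mice. Its log2 fold change was 0.92 (SE 0.18) and it had the smallest p of the list (unadjusted p = 0.000331, adjusted p = 0.175). Csrp1, a LIM protein of the actin cytoskeleton, lay at 1414 to 2424 CPM in CIA and 642 to 1246 CPM in naïve mice, with a log2 difference of 0.88 (SE 0.19). Tpm2, the beta tropomyosin of thin filaments, lay at 1476 to 3251 against 734 to 1412 CPM, with a log2 fold change of 1.03 (SE 0.22).

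**Figure D2:**
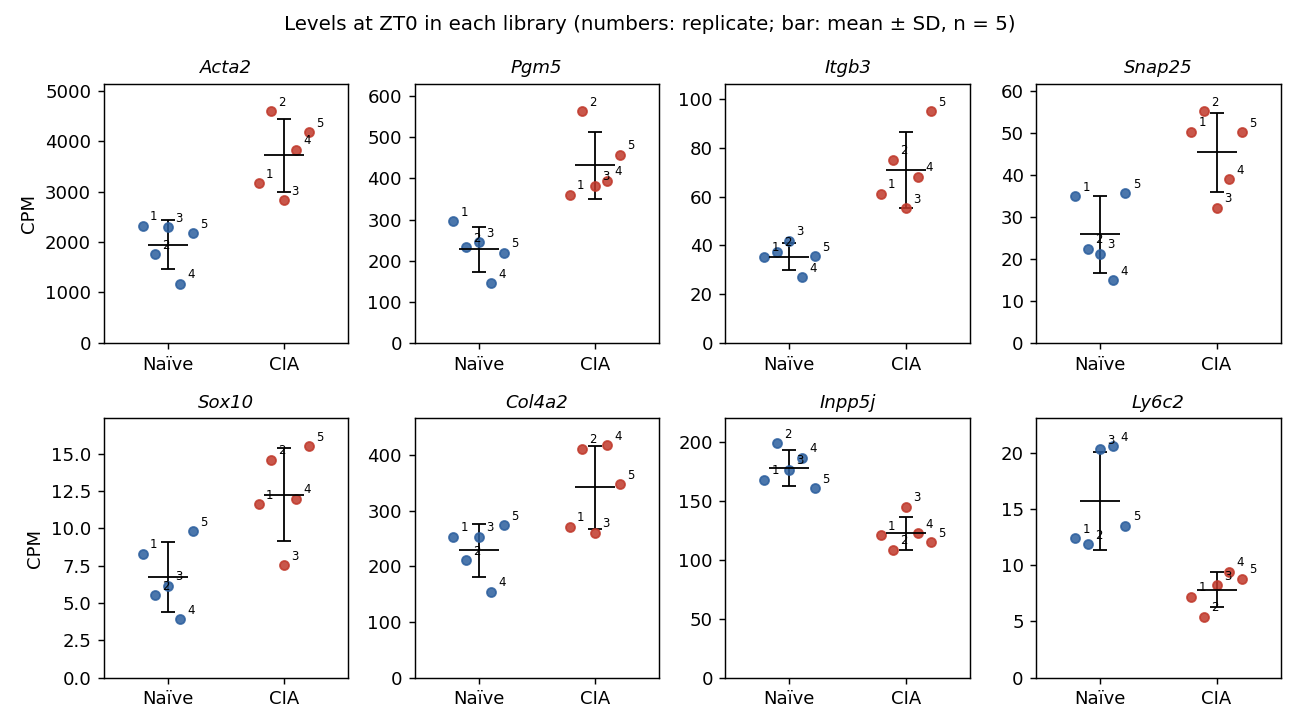
Level in CPM (y axis, from 0) of 8 named genes in each naïve (blue) and CIA (red) library at ZT0; numbers are replicates and bars are mean ± SD (n = 5). The groups do not overlap for Acta2, Pgm5, Itgb3, Inpp5j and Ly6c2, and overlap for Snap25, Sox10 and Col4a2.

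Since the smooth muscle genes lay higher as a group, their promoters were searched for the CArG box, the motif that serum response factor binds in genes of contractile proteins. The windows were those of RefSeq (GRCm38.p6), from 250 bases before to 50 after each transcript start, and both strands were read. The table held 24 windows for 21 of the 26 genes. A CArG box stood in 1 of 24 windows (4.17%), that of Myl9, against 1.63% of all 32851 windows and 1.32% of those of genes tested. A box or a match with 1 departing base stood in 6 of 24 (25%), against 9.98% and 8.98%. The list was chosen with earlier results of these data known, so these shares test nothing. The windows of Acta2 and Myl9 are printed because they carry the motif near the start in genes with non-overlapping groups, with the matches in capitals. In Acta2 both matches depart by 1 base and begin at −84 and −34 from the start, on the minus strand of chr19:34255383-34255522. In Myl9, the regulatory light chain of smooth muscle myosin, the full match begins at −161 and a match with 1 departure at −99, on the plus strand of chr2:156775238-156775377.
Acta2: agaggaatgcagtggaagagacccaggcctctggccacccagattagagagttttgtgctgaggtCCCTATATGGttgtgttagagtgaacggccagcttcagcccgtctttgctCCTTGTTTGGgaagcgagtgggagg
Myl9: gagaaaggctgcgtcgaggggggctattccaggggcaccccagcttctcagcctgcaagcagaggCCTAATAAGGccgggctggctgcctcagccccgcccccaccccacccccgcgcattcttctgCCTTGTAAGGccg
A match in these windows is a description of the letters, and its use in the colon was not measured.

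Genes of the enteric nervous system lay higher in CIA mice, like those of the muscle coat. Of 23 enteric neuron genes all had the higher mean in CIA mice, 18 at an unadjusted p under 0.05 (10.8% of all genes), with a median of 1.66-fold. DESeq2 called 6 of them higher (3.48% of all genes) and edgeR without CIA replicate 3 called 1 (2.05%). The groups overlapped in 22 of the 23, while 1.67% of all genes had all CIA values above all naïve ones. Snap25 (gene 20614, chromosome 2, 136713439 to 136782428), a protein of synaptic vesicle fusion, stood at 50.3, 55.1, 32.2, 38.9 and 50.2 CPM in CIA mice and at 34.9, 22.5, 21.2, 14.9 and 35.7 CPM in naïve mice. CIA replicate 3 was below naïve replicates 1 and 5, and the other CIA values were above all naïve ones. The log2 fold change was 0.81 with an SE of 0.24 (adjusted p = 0.182) and 0.95 without naïve replicate 5. Scn3a, a voltage-gated sodium channel, had the smallest p of the list, with 5.26, 6.68, 3.60, 4.94 and 5.55 CPM in CIA mice and 2.52, 3.23, 2.29, 2.58 and 3.75 CPM in naïve mice. Again CIA replicate 3 alone fell within the naïve range, and the log2 fold change was 0.86 (SE 0.20; adjusted p = 0.175, and 0.0408 without that library). Elavl4, a neuronal RNA-binding protein, was at 0.95 (SE 0.30) on the log2 scale.

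Of 12 enteric glia genes 11 had the higher mean in CIA, 9 at an unadjusted p under 0.05 (10.8% of all genes). The median log2 fold change was 0.83. Sox10 (gene 20665, chromosome 15, 79154913 to 79164490), a transcription factor of glia, stood at 11.6, 14.6, 7.53, 11.98 and 15.5 CPM in CIA mice and at 8.32, 5.52, 6.17, 3.90 and 9.82 CPM in naïve mice, with CIA replicate 3 below naïve replicates 1 and 5. Its log2 fold change was 0.86 with an SE of 0.26 (adjusted p = 0.187). Lgi4, Cdh19 and S100b, further glial genes, had log2 fold changes of 0.80, 1.01 and 0.85 (SE 0.21, 0.29 and 0.27). A further fit took the mean log2 CPM of the smooth muscle list in each library as a covariate. This score lay at 8.94 to 9.96 in CIA and 7.72 to 8.85 in naïve mice, without overlap. Values with the covariate, here and below, therefore cannot separate the smooth muscle level from the group. With it the log2 fold change was 0.026 for Snap25, 0.46 for Scn3a and −0.079 for Sox10. The medians were −0.18 for neurons and −0.036 for glia. In that fit 0 genes passed in either direction, with 320 higher and 442 lower at an unadjusted p under 0.05.

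Genes of connective tissue and vessels lay closer together in the groups. Of 19 collagen genes 17 had the higher mean in CIA mice and 8 had an unadjusted p under 0.05, with a median log2 fold change of 0.26. Col4a2 (gene 12827, chromosome 8, 11312805 to 11449287), a chain of the basement membrane collagen, stood at 271, 411, 260.1, 418 and 348 CPM in CIA mice and at 253, 211, 253, 155 and 274 CPM in naïve mice. CIA replicates 2, 4 and 5 lay above the naïve range and replicates 1 and 3 within it, for a log2 fold change of 0.58 with an SE of 0.18 (adjusted p = 0.191). Col16a1, Col5a3 and Col5a2, collagens associated with fibrils, had log2 fold changes of 0.42, 0.45 and 0.40, each with an SE of 0.14 to 0.17. Among 15 fibroblast genes 3, and among 14 genes of blood vessel endothelium 2, had the higher level at an unadjusted p under 0.05. In both lists 0 had the lower, and the medians were 0.21 and 0.21. Of all genes 10.8% had the higher and 5.83% the lower level at that p. Of 5 markers of Cajal's interstitial cells, the pacemakers of the gut, 1 had an unadjusted p under 0.05 (median 0.41).

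Skeletal muscle genes showed the weight of a library. Atp2a1, the calcium pump of fast skeletal muscle, stood at 0.451, 0.823, 0.954, 0.982 and 0.797 CPM in CIA mice and at 0.809, 0.495, 0.647, 1.01 and 19.3 CPM in naïve mice. Naïve replicate 5 alone set the naïve mean, and the log2 fold change was −2.47 (SE 1.03) with it and 0.11 without it. Actn3 and Tnni2, an actinin and a troponin of fast fibres, were likewise highest in that library, at 5.51 and 6.09 CPM, against no more than 1.49 and 1.23 CPM in the other 9. Ckm, the creatine kinase of muscle, was unlike these, with 43.5, 61.1, 16.6, 45.3 and 54.5 CPM in CIA mice and 19.4, 13.9, 16.7, 8.40 and 39.3 CPM in naïve mice. Its log2 fold change was 1.18 with an SE of 0.41 (adjusted p = 0.209) and −0.33 with the smooth muscle covariate. The median of 11 skeletal muscle genes moved from −1.08 to 0.11 without naïve replicate 5, and that of 8 genes of the mesothelium, the outer lining of the gut, from 0.037 to 0.91.

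**Figure D3:**
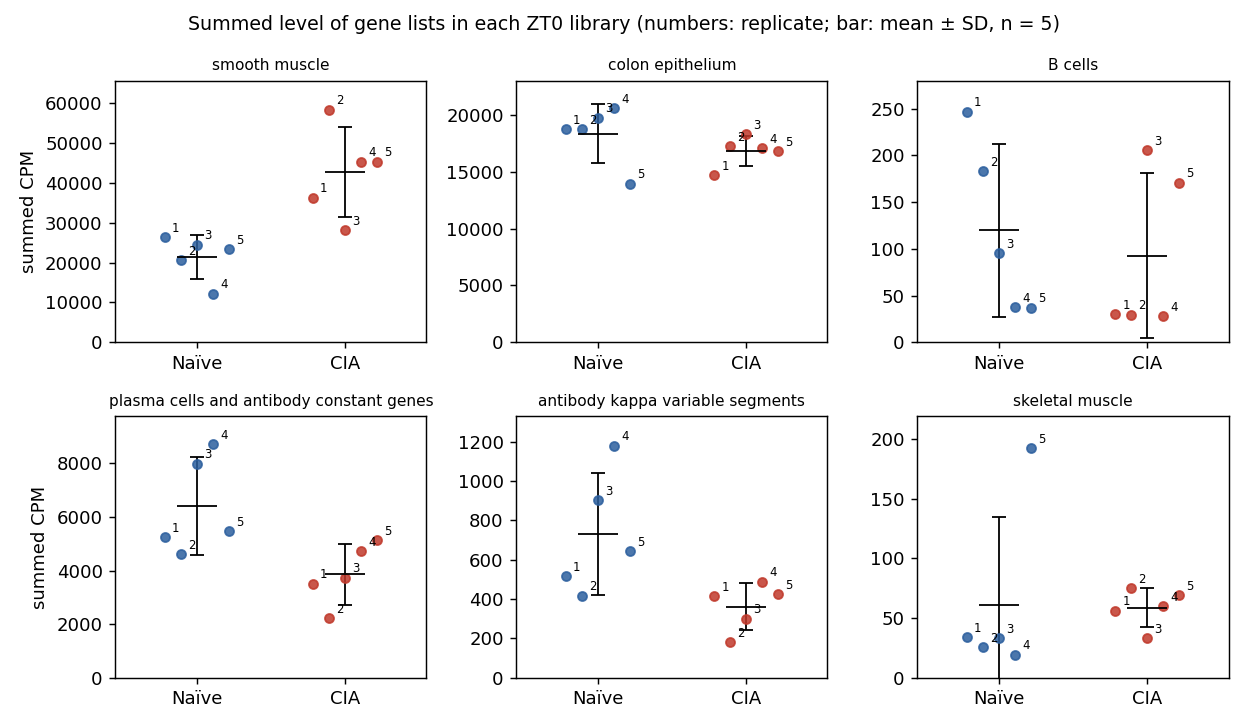
Summed level in CPM (y axis, from 0) of all members, tested or not, of 6 gene lists in each naïve (blue) and CIA (red) library at ZT0; numbers are replicates and bars are mean ± SD (n = 5). Smooth muscle sums do not overlap, B cell sums spread widely within each group, and the skeletal muscle sum is highest in naïve replicate 5.

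Epithelial genes lay slightly lower in CIA mice. Of 15 genes of the colon epithelium 11 had the lower mean and 3 an unadjusted p under 0.05, against 5.83% of all genes, with a median log2 fold change of −0.099 (−0.20 without CIA replicate 3, −0.17 without naïve replicate 5 and −0.022 with the smooth muscle covariate). Hnf4a (gene 15378, chromosome 2, 163506811 to 163572907), a transcription factor of the intestinal epithelium, stood at 634, 582, 678, 681 and 718 CPM in CIA mice and at 805, 856, 879, 908 and 740.2 CPM in naïve mice. All CIA values were below all naïve values, with a log2 fold change of −0.35 with an SE of 0.087 (adjusted p = 0.177 in edgeR and 0.00577 in DESeq2). Vil1, the villin of the brush border, did not overlap either, at 479 to 629 against 643 to 759 CPM (−0.25, SE 0.090), and was at −0.022 with the smooth muscle covariate. Cdx1, which specifies intestinal identity, lay at 262 to 345 against 321 to 419 CPM, and Krt19, an epithelial keratin, at 1753 to 2609 against 1716 to 3308 CPM.

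Of 18 genes of absorptive colonocytes 2 had the lower level at an unadjusted p under 0.05 and 0 the higher (median −0.20), against 5.83% and 10.8% of all genes. Aqp4, a water channel, stood at 369, 392.3, 517, 384 and 336 CPM in CIA mice and at 737, 809, 802, 922 and 201 CPM in naïve mice. Naïve replicate 5 had the lowest value of all 10 libraries and the other 4 naïve values exceeded all CIA values, so the log2 fold change was −0.80 with an SE of 0.32 (adjusted p = 0.249) and −1.03 (adjusted p = 0.0595) without that library. Car1, a carbonic anhydrase of colonocytes, was by contrast highest in naïve replicate 5, at 7398 CPM against 845 to 2265 CPM in the other 9 libraries. The butyrate transporter Slc5a8 lay at 85.01 to 207 CPM in CIA and 112 to 257 CPM in naïve mice, with CIA replicate 3 the highest of its group. Sult1c2, a sulfotransferase, had a log2 fold change of −0.48 (SE 0.20). Of 14 goblet cell genes 3 had the lower level at an unadjusted p under 0.05 (5.83% of all genes) and 0 the higher (10.8%). Their median was −0.12, or −0.21 without naïve replicate 5.

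Of 34 tight junction genes, 4 had the higher and 5 the lower level at an unadjusted p under 0.05, against 10.8% and 5.83% of all genes. The median was −0.068, or −0.10 without CIA replicate 3 and −0.11 without naïve replicate 5. Cingulin (Cgn, gene 70737, chromosome 3, 94760069 to 94787725), a plaque protein of epithelial tight junctions, stood at 151, 124, 164, 132 and 126 CPM in CIA mice and at 168, 217, 191, 238 and 150.4 CPM in naïve mice. Naïve replicate 5 lay within the CIA range and naïve replicate 1 just above it, for a log2 fold change of −0.47 with an SE of 0.13 (adjusted p = 0.180). The junction scaffold Mpdz, the adhesion molecule Jam3 and the angiomotin Amotl1 had the higher mean, with log2 fold changes of 0.78, 0.55 and 0.41 (SE 0.25, 0.18 and 0.14). Jam3 stood at 23.4, 29.4, 16.8, 27.9 and 27.99 CPM in CIA mice and at 19.4, 15.97, 16.6, 12.3 and 21.1 CPM in naïve mice, with CIA replicate 3 within the naïve range. With the smooth muscle covariate the log2 fold changes of Mpdz, Jam3, Amotl1 and Cgn were −0.15, −0.13, −0.038 and −0.017. The claudin Cldn4 stood at 89.5, 148, 81.1, 88.6 and 81.4 CPM in CIA mice and at 99.0, 122, 71.6, 83.4 and 47.5 CPM in naïve mice, with CIA replicate 2 apart from the rest and a log2 fold change of 0.21 with an SE of 0.24 (adjusted p = 0.7095).

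Among 19 genes of antimicrobial and acute phase proteins, 14 had the lower mean, with a median of −0.31. At an unadjusted p under 0.05, 2 had the lower level and 1 the higher, against 5.83% and 10.8% of all genes. Saa3, a serum amyloid, lay at 1.59 to 4.86 CPM in CIA and 0.421 to 2.79 CPM in naïve mice. Nox1, the superoxide-producing oxidase of the colon epithelium, stood at 7.35, 4.19, 8.08, 9.82 and 5.12 CPM in CIA mice and at 11.504, 17.6, 22.3, 17.02 and 2.89 CPM in naïve mice. Naïve replicate 5 was the lowest of all, so the log2 fold change moved from −1.05 (SE 0.44) to −1.31 without it. Pla2g2a, a phospholipase that attacks bacterial membranes, had a log2 fold change of −0.70 with an SE of 0.36 (adjusted p = 0.3605).

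Antibody transcripts lay lower in CIA mice. Of 73 tested kappa variable segments (of 103 in the table) 65 had the lower mean in CIA mice, 24 at an unadjusted p under 0.05. At that p 1 had the higher level, and of all genes 5.83% had the lower and 10.8% the higher level. The median was 0.525 of the naïve level, and in 4 segments, against 1.03% of all genes, every CIA value was below every naïve value. Of 60 tested heavy chain variable segments (of 120) 52 had the lower mean and 25 an unadjusted p under 0.05, with a median of 0.494 of the naïve level. DESeq2 called 12 kappa and 8 heavy segments lower (0.894% of all genes), and edgeR without CIA replicate 3 called 1 of each (0.591%). Variable segments are paralogs that may share reads, so the value of a named segment is less certain than that of its list. The summed level of all 103 kappa segments, tested or not, was 415, 181, 300.2, 488 and 424 CPM in CIA mice and 517, 416, 903, 1180.2 and 642 CPM in naïve mice. CIA replicates 4 and 5 lay above naïve replicate 2 and the others below all naïve values. The smooth muscle covariate, whose values did not overlap between the groups, was also entered for these lists. With the smooth muscle covariate the median log2 fold change went from −0.93 to −0.55 for kappa and from −1.02 to −0.21 for heavy segments.

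Igkv3-12 (gene 667914, chromosome 6, 70518250 to 70518849) stood at 5.94, 3.47, 6.68, 3.61 and 6.30 CPM in CIA mice and at 17.8, 11.9, 8.68, 16.5 and 11.4 CPM in naïve mice. The groups did not overlap, and the log2 fold change was −1.35 with an SE of 0.25 (adjusted p = 0.175; 0.0391 without CIA replicate 3). Igkv1-110 (chromosome 6, 68270527 to 68271265) stood at 32.997, 10.7, 15.5, 20.9 and 12.4 CPM in CIA mice and at 30.5, 34.7, 57.4, 106 and 52.2 CPM in naïve mice, with CIA replicate 1 inside the naïve range, and a log2 fold change of −1.60 (SE 0.39). Igkv4-57 and Igkv3-4 had log2 fold changes of −1.80 (SE 0.41) and −1.62 (SE 0.44). The heavy chain segment Ighv1-7 (gene 668474, chromosome 12, 114538495 to 114538788) stood at 1.74, 0.524, 0.933, 1.20 and 1.88 CPM in CIA mice and at 5.23, 4.27, 6.15, 3.39 and 4.18 CPM in naïve mice. All CIA values were below all naïve values, for a log2 fold change of −1.88 with an SE of 0.33 (adjusted p = 0.175 in edgeR and 3.02e-05 in DESeq2). Ighv1-4, Ighv1-82 and Ighv1-22 had log2 fold changes of −1.38, −1.18 and −1.74, and in Ighv1-22 naïve replicate 4 stood at 13.8 CPM against 2.12 to 3.48 CPM in the other 4 naïve mice.

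All 20 tested genes of plasma cells and antibody constant regions had the lower mean in CIA, 9 at an unadjusted p under 0.05 (5.83% of all genes). The median was 0.666 of the naïve level. Igha (gene 238447, chromosome 12, 113256204 to 113260236), the constant region of IgA, stood at 1789, 1103, 1826, 2436 and 2654 CPM in CIA mice and at 2683, 2259, 4022, 4505 and 2842 CPM in naïve mice. CIA replicates 4 and 5 reached the lower naïve values, and the log2 fold change was −0.73 with an SE of 0.25 (adjusted p = 0.209). The kappa constant gene Igkc stood at 754, 395, 969, 1179.9 and 1194 CPM in CIA mice and at 1222, 1162, 2296, 2384 and 1462 CPM in naïve mice, with a log2 difference of −0.92 (SE 0.31, adjusted p = 0.204 in edgeR and 0.0476 in DESeq2). Derl3, a protein of endoplasmic reticulum quality control in secretory cells, and Xbp1, a transcription factor of plasma cells and other secretory cells, had log2 fold changes of −0.80 (SE 0.26) and −0.32 (SE 0.11). The median log2 fold change of the list was −0.59, and −0.65 without CIA replicate 3, −0.65 without naïve replicate 5 and −0.24 with the smooth muscle covariate. With that covariate Igha was at −0.32 and Igkc at −0.36.

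B cell genes followed the library more than the group. The summed level of 16 genes was 30.3, 29.6, 205, 27.8 and 171 CPM in CIA mice and 247, 183, 95.4, 37.5 and 36.7 CPM in naïve mice. CIA replicates 3 and 5 and naïve replicates 1 and 2 were high, naïve replicate 3 lay between, and the other 5 libraries were low. Cd79a, a chain of the B cell receptor complex, stood at 4.61, 3.82, 23.6, 4.50 and 19.4 CPM in CIA mice and at 28.6, 23.8, 17.5, 7.83 and 6.62 CPM in naïve mice. Its log2 fold change was −0.59 with an SE of 0.60 (adjusted p = 0.663), and those of Cd79b, Fcrla and Blk were −0.52, −0.52 and −0.47 with SE of 0.67 to 0.80. None of the 16 had an unadjusted p under 0.05 in edgeR, DESeq2 called 0, and the median moved from −0.39 to −0.98 without CIA replicate 3 and to −0.65 without naïve replicate 5. The antibody sums did not share this order: naïve replicate 4, with few B cell transcripts, had the highest kappa sum.

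In the IgA network, the genes through which the gut recruits and sustains IgA-producing cells, 29 of 36 members had the lower mean. The median was −0.27. At an unadjusted p under 0.05, 5 had the lower level and 1 the higher, against 5.83% and 10.8% of all genes. Tnfsf13 (gene 69583, chromosome 11, 69682577 to 69685554), the gene of APRIL, a survival factor of plasma cells, stood at 5.57, 4.21, 6.13, 5.51 and 5.80 CPM in CIA mice and at 7.10, 8.96, 8.91, 8.04 and 9.59 CPM in naïve mice. The groups did not overlap, and the log2 fold change was −0.65 with an SE of 0.14 (adjusted p = 0.175 in edgeR, 0.0474 without CIA replicate 3 and 0.00190 in DESeq2). With the smooth muscle covariate it was −0.50. Pigr (gene 18703, chromosome 1, 130826684 to 130852249), the receptor that carries IgA across the epithelium, stood at 3601, 3440.0, 5032, 3457 and 3115 CPM in CIA mice and at 4584, 5671, 4766, 5689 and 4140.0 CPM in naïve mice. CIA replicate 3 lay within the naïve range and the other 4 CIA values below it, for a log2 fold change of −0.41 (SE 0.15), or −0.55 without that library and −0.0060 with the smooth muscle covariate. Cd28, a costimulatory receptor of T cells, lay at 1.25 to 2.12 against 2.11 to 3.57 CPM (−0.65, SE 0.21).

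**Figure D4:**
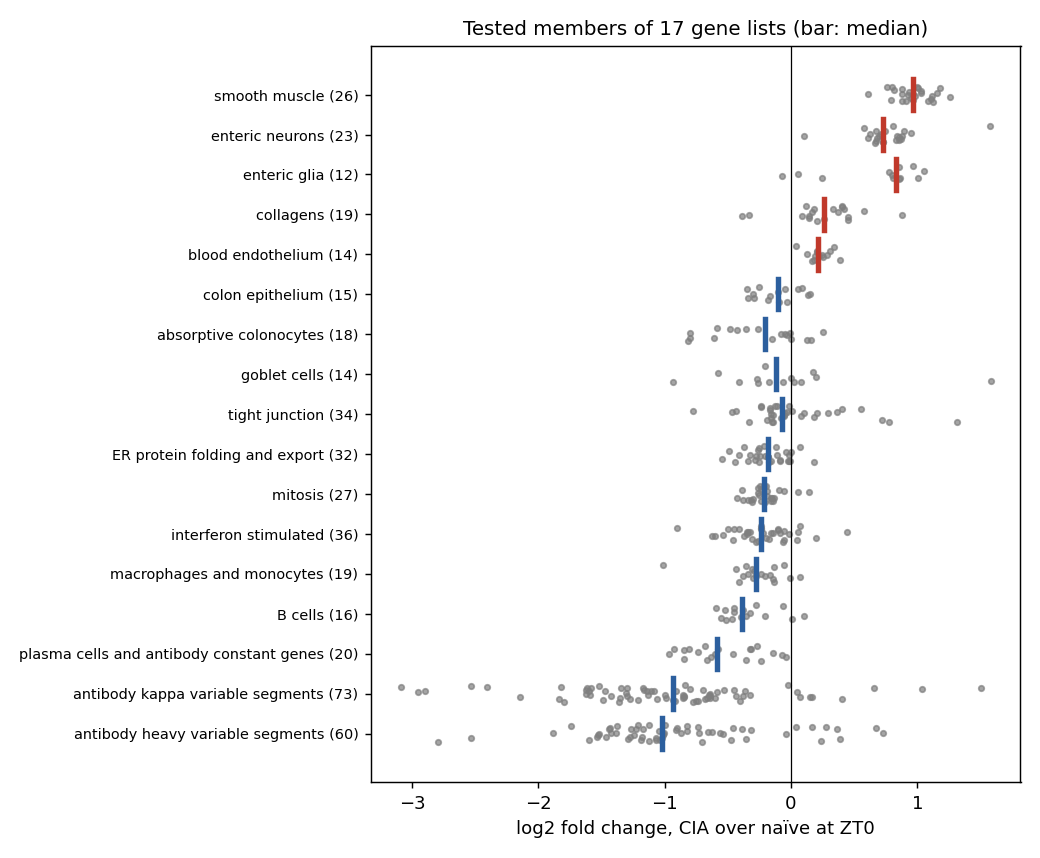
Log2 fold change (CIA over naïve at ZT0, x axis) of each tested member of 17 gene lists, with the number of members in brackets and the median as a bar. Medians of smooth muscle, enteric neurons and glia lie between 0.73 and 0.96, and those of the antibody variable segments near −1.

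Macrophages and monocytes showed the same direction as plasma cells. Of 19 genes 18 had the lower mean in CIA mice, 6 at an unadjusted p under 0.05 (5.83% of all genes), and in 3 the groups did not overlap (1.03%). The summed level of all 20 list members, tested or not, was 441, 409, 649, 504 and 574 CPM in CIA mice and 663, 676, 621, 632 and 584 CPM in naïve mice. Ly6c2 (gene 100041546, chromosome 15, 75108161 to 75112066), a surface protein of inflammatory monocytes, stood at 7.21, 5.44, 8.20, 9.44 and 8.79 CPM in CIA mice and at 12.4, 11.9, 20.4, 20.6 and 13.5 CPM in naïve mice. All CIA values were below all naïve values, and the log2 fold change was −1.01 with an SE of 0.21 (adjusted p = 0.175; 0.0475 without CIA replicate 3). The complement genes C1qb, C1qc and C1qa, which macrophages express and which together make the recognition unit C1q, had log2 fold changes of −0.44, −0.38 and −0.30 (SE 0.13, 0.12 and 0.12). C1qc stood at 26.9, 23.9, 35.3, 36.1 and 36.97 CPM in CIA mice and at 39.98, 42.6, 40.6, 40.4 and 43.6 CPM in naïve mice, so that CIA replicate 5 came closest to the naïve values. DESeq2 called 2 of the 19 genes lower (0.894% of all genes). The median of the list went from −0.28 to −0.17 with the smooth muscle covariate, and Ly6c2 to −0.62.

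Of 36 interferon-stimulated genes 31 had the lower mean, 3 at an unadjusted p under 0.05, and 1 had the higher level at that p. Of all genes 5.83% had the lower and 10.8% the higher level at that p. The median of the list was −0.235, or −0.128 without naïve replicate 5. Ifi44 stood at 1.02, 2.39, 2.54, 2.47 and 1.497 CPM in CIA mice and at 3.20, 4.77, 3.33, 3.67 and 3.52 CPM in naïve mice, without overlap, and had a log2 fold change of −0.90 with an SE of 0.26 (adjusted p = 0.180). The log2 fold change was −0.35 (SE 0.12) for Stat2, an interferon signal transducer, −0.50 (SE 0.19) for the RNA sensor Dhx58 and 0.44 (SE 0.19) for Gbp2, a guanylate-binding protein. All 12 genes of MHC class II presentation had the lower mean, 1 at an unadjusted p under 0.05 (median −0.30). Their summed level was 807, 729, 1404, 816 and 1190.3 CPM in CIA mice and 1482, 1384, 1004, 1075 and 1027 CPM in naïve mice. The highest 4 sums were in CIA replicates 3 and 5 and naïve replicates 1 and 2, the libraries high in B cell genes. Of 21 T cell genes 2 had the lower level at that p and 0 the higher, with a median of 0.070, or −0.16 without CIA replicate 3 and −0.034 without naïve replicate 5. Of 18 tested genes of inflammatory cytokines and chemokines 1 had the lower level at that p and 0 the higher (median −0.25, or −0.46 without CIA replicate 3).

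Of 23 clock genes, 2 had the higher and 2 the lower level at an unadjusted p under 0.05, against 10.8% and 5.83% of all genes. The median was 0.00334 on the log2 scale, −0.0064 without CIA replicate 3 and −0.058 without naïve replicate 5. The activator Arntl (gene 11865, chromosome 7, 113178471 to 113314126) stood at 66.2, 61.6, 91.4, 68.3 and 74.4 CPM in CIA mice and at 89.5, 64.5, 74.6, 99.6 and 66.6 CPM in naïve mice. Its groups overlapped throughout, with a log2 fold change of −0.13 with an SE of 0.14 (adjusted p = 0.696). Its partners Clock and Npas2 had log2 fold changes of −0.025 (SE 0.12) and −0.17 (SE 0.19), and Arntl2 of 0.47 (SE 0.25).

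Among the repressors Per2 (gene 18627, chromosome 1, 91415977 to 91459351) had the smallest p. It stood at 19.9, 20.9, 21.7, 22.3 and 17.05 CPM in CIA mice and at 34.3, 47.5, 79.6, 46.6 and 21.9 CPM in naïve mice. The CIA values lay within 6 CPM of each other, and the naïve values spread from replicate 5, which lay within the CIA range, to replicate 3. The log2 fold change was −1.17 with an SE of 0.27 (adjusted p = 0.175 in edgeR and 0.00431 in DESeq2), −1.35 without naïve replicate 5 (adjusted p = 0.0833) and −1.10 with the smooth muscle covariate. Per1 stood at 32.5, 76.5, 30.1, 26.96 and 28.3 CPM in CIA mice and at 32.1, 54.8, 34.6, 40.3 and 25.3 CPM in naïve mice, where CIA replicate 2 was far above the rest and the log2 fold change was 0.055 (SE 0.31). Per3, Cry1 and Cry2 had log2 fold changes of −0.49, −0.11 and 0.0033 (SE 0.31, 0.15 and 0.15).

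Of the loop that sets the level of Arntl, the repressor genes Nr1d1 and Nr1d2 (Rev-erb alpha and beta) had log2 fold changes of 0.70 (SE 0.41) and 0.44 (SE 0.51). Nr1d1 stood at 35.7, 54.5, 26.9, 21.4 and 17.2 CPM in CIA mice and at 15.9, 39.4, 8.19, 14.9 and 17.3 CPM in naïve mice, with replicate 2 the highest of each group. The activator Rora had the higher mean, at 1.00 ± 0.335 against 0.458 ± 0.262 CPM (1.12, SE 0.42), and was at −0.31 with the smooth muscle covariate. Among output factors Hlf had a log2 fold change of 0.60 (SE 0.25), Dbp of −0.0045 (SE 0.26), Tef of −0.30 (SE 0.22) and Nfil3 of 0.063 (SE 0.25). The clock genes Bhlhe40, Bhlhe41, Ciart, Csnk1d and Csnk1e ranged from −0.10 to 0.67, each with an adjusted p of at least 0.310.

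**Figure D5:**
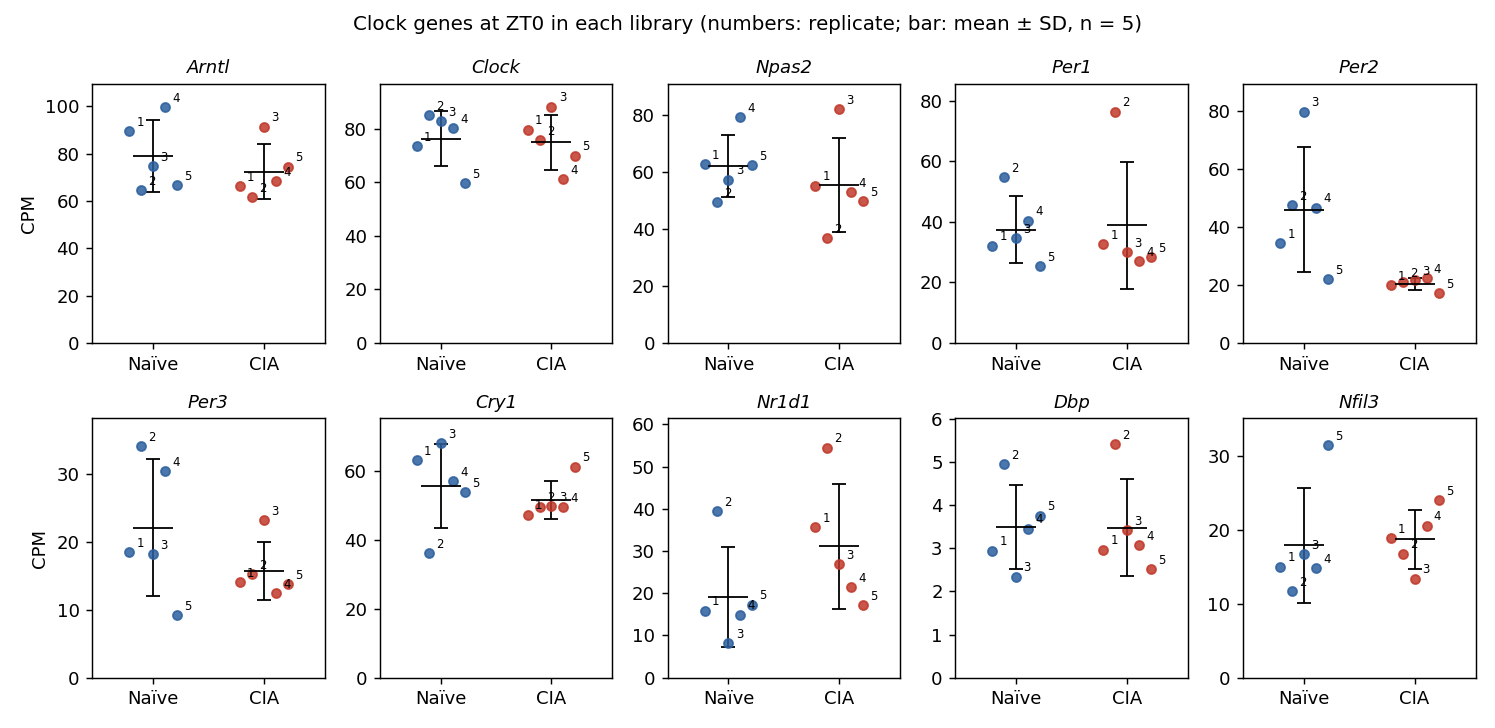
Level in CPM (y axis, from 0) of 10 clock genes in each naïve (blue) and CIA (red) library at ZT0; numbers are replicates and bars are mean ± SD (n = 5). Per2 lies at 17.05 to 22.3 CPM in CIA mice and at 21.9 to 79.6 CPM in naïve mice, and the groups also overlap for the other 9 genes.

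Programs of growth and protein handling had small medians. Of 32 genes of protein folding and export in the endoplasmic reticulum 29 had the lower mean, 10 at an unadjusted p under 0.05 (5.83% of all genes). Their median was −0.18. The chaperone Calr (gene 12317, chromosome 8, 84842088 to 84846931) stood at 346, 276, 421, 438 and 312 CPM in CIA mice and at 447, 432, 519, 452 and 587 CPM in naïve mice. CIA replicate 4 reached the naïve range, and the log2 fold change was −0.44 with an SE of 0.14 (adjusted p = 0.192). The chaperones Hyou1 and Dnajc3 had log2 fold changes of −0.49 and −0.28 (SE 0.17 and 0.10). Of 27 mitosis genes 25 had the lower mean but 1 an unadjusted p under 0.05 (median −0.21), and of 39 DNA replication genes 33 and 0 (median −0.13, or −0.21 without CIA replicate 3). Cytosolic ribosomal protein genes, respiratory chain genes of the nucleus and transcripts of the mitochondrial genome had medians of −0.071, −0.034 and 0.21. Of these lists 1 of 80, 6 of 76 and 0 of 10 members had an unadjusted p under 0.05, against 16.6% of all genes. The ribosomal median was −0.12 without CIA replicate 3 and −0.13 without naïve replicate 5, and the respiratory chain median −0.053 without CIA replicate 3.

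The 29 immediate early genes had a median of −0.20, or −0.061 without naïve replicate 5. Against 5.83% and 10.8% of all genes, 2 had the lower level at an unadjusted p under 0.05 and 0 the higher. These were Fosl1, an AP-1 subunit with a low level (0.218 ± 0.0959 against 0.545 ± 0.177 CPM), and the growth regulator Myc (16.7 to 27.1 against 23.1 to 31.2 CPM; log2 fold change −0.35, SE 0.14). The stress factor Atf3 lay at 30.8 to 52.3 against 30.9 to 87.7 CPM and Ier3 at 17.1 to 26.6 against 12.2 to 19.6 CPM. Of 17 heat shock and cold-inducible genes, 4 had the higher level at an unadjusted p under 0.05 and 1 the lower. Their median was −0.045, or 0.033 without CIA replicate 3. Hspb8, a small heat shock protein of muscle, did not overlap, at 71.4, 123, 73.1, 81.5 and 91.2 CPM in CIA mice and 68.9, 55.4, 46.2, 28.6 and 60.6 CPM in naïve mice. Its log2 fold change was 0.76 with an SE of 0.22 (adjusted p = 0.182) and −0.072 with the smooth muscle covariate. Hspb1, a further small heat shock protein, went from 0.62 (SE 0.27) to −0.34 with it. The cold-inducible RNA-binding protein gene Cirbp had a log2 fold change of 0.47 (SE 0.20) and 0.81 with the covariate, and the chaperone Hspa8 of −0.40 (SE 0.17).

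The remaining lists are described by their counts and medians. At an unadjusted p under 0.05, 10.8% of all genes had the higher and 5.83% the lower level. Of 3 erythrocyte genes all had the higher mean and 1 an unadjusted p under 0.05 (median 1.42, or 0.39 with the smooth muscle covariate). Of 8 adipocyte genes 7 had the lower mean and 1 the higher level at that p, and the median of −0.29 was 0.85 without naïve replicate 5. Cela1, the 1 gene of the pancreas list that was tested, was at −0.38, −1.02 without CIA replicate 3 and −0.61 without naïve replicate 5. The 7 genes of lymphatic endothelium had a median of 0.28.

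Among epithelial lists, 16 enteroendocrine genes had a median of −0.19 (−0.29 without CIA replicate 3), 11 tuft cell genes of −0.091 (0.087 without it) and 16 genes of crypt stem cells and Wnt targets of −0.13. Among immune lists, 18 of 20 genes of MHC class I and the immunoproteasome had the lower mean, 2 at an unadjusted p under 0.05 (median −0.15). Cytotoxic and NK cell genes had a median of −0.29 (−0.16 without naïve replicate 5) and neutrophil genes of −0.65 (−0.39 without it), with 0 of 11 and 0 of 5 at that p. Mast cell genes had a median of −0.13, or −0.45 without CIA replicate 3.

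Of 23 hypoxia response genes 17 had the higher mean, 3 at an unadjusted p under 0.05, and 1 had the lower level at that p, with a median of 0.066, or 0.036 without naïve replicate 5. Of 18 genes induced by glucocorticoids 13 had the higher mean and 1 that p (median 0.21). The 22 PPAR targets had a median of 0.016, or 0.056 without CIA replicate 3 and 0.22 without naïve replicate 5. Genes of cholesterol synthesis and uptake and of ribosome biogenesis had medians of −0.11 and −0.069, with 2 of 24 and 2 of 30 at the lower level at that p. The 31 proteasome genes had a median of −0.018, with −0.040 without CIA replicate 3 and 0.00052 without naïve replicate 5, and 0 at that p.

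To ask what was particular to ZT0, the effect at ZT0 was tested against the mean effect at the 5 other time points in a fit of all 60 libraries. In edgeR 0 of 18057 genes passed (0%), and the smallest adjusted p was 0.976. At an unadjusted p under 0.05 there were 548 genes (3.03%), a smaller share than that threshold gives where no gene differs. The same test in limma voom passed 0 genes, with 606 at that p. Per2 had a log2 fold change of −1.19 at ZT0 and a mean of −0.10 at the other times, a difference of −1.09 (SE 0.33, unadjusted p = 0.00165). For Inpp5j the values were −0.56 and −0.14 (difference −0.42, SE 0.12) and for Cldn4 0.19 and 0.86 (difference −0.68, SE 0.29). The phosphatidylserine synthase gene Ptdss2 and the peroxisome factor gene Pex6 had differences of −0.29 (SE 0.083) and −0.24 (SE 0.071). Their groups did not overlap at ZT0 (34.4 to 37.1 against 40.3 to 45.4 CPM and 75.7 to 85.1 against 86.1 to 102 CPM), as in 1.03% of all genes. Apart from Cldn4, the genes here and in the next paragraph were chosen by the smallest p of this contrast, which holds their ZT0 values. Separation at ZT0 therefore follows in part from the choice.

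On the side of more positive effects at ZT0 stood Cops5, a subunit of the COP9 signalosome, with 60.7 to 69.1 CPM in CIA and 53.1 to 57.8 CPM in naïve mice and a difference of 0.19 (SE 0.064). Dph5, an enzyme of diphthamide synthesis, had a difference of 0.42 (SE 0.15) and the macrophage gene Ms4a7 of 0.78 (SE 0.24), with a log2 fold change of −0.0090 at ZT0 and −0.79 at the other times. The segment Igkv4-91 had a difference of 2.79 (SE 0.86) that rested on CIA replicate 4, at 78.4 CPM against 1.82 to 4.14 CPM in the other 4 CIA mice.

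The muscle wall genes had a log2 fold change above 0 at the other times as well. Acta2 was at 0.92 at ZT0 and at 0.61 at the other times (difference 0.31, SE 0.26, unadjusted p = 0.240). The smooth muscle median was 0.95 at ZT0 against 0.61, and 26 of 26 members were further from 0 at ZT0, with 0 at an unadjusted p under 0.05 for the difference. Enteric neurons had medians of 0.71 and 0.55. The kappa segments, 91 in this fit, had medians of −1.02 and −1.24. Mitosis genes went the other way, with medians of −0.23 at ZT0 and −0.55 at the other times and 0 of 27 members further from 0 at ZT0. For T cell genes the medians were 0.069 and −0.57. None of the smooth muscle, neuron, mitosis and T cell genes had an unadjusted p under 0.05 for the difference, and members of other lists did. Of 14 skeletal muscle genes 10 did, with medians of −1.36 at ZT0 and 0.65 at the other times, and 0 of 14 did without naïve replicate 5. Of 29 immediate early genes 5 did, with medians of −0.22 and 0.15, and of 34 tight junction genes 4 did, against 3.03% of all genes. Without CIA replicate 3 these were 6 and 5 (6.21% of all genes), and without naïve replicate 5 they were 4 and 8 (5.85%). Many further lists held such genes in the same 3 fits, among them antimicrobial and acute phase genes 1, 6 and 5 of 21, and core clock genes 2, 3 and 6 of 23. Absorptive colonocyte genes had 0, 4 and 3 of 19, collagens 0, 3 and 2 of 19, and respiratory chain genes of the nucleus 3, 8 and 5 of 77. Cytosolic ribosomal protein genes had 0, 0 and 8 of 81, and the IgA network 3 of 38, 2 of 39 and 3 of 38.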

How the data were processed

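The authors sequenced stranded mRNA libraries of mid-colon as paired ends; per the submitters' processing notes, bcl2fastq 2.17.1.14, Trimmomatic 0.36 and STAR 2.5.3 (mm10) served for demultiplexing, trimming and alignment, and Rsubread for counting per gene. The deposited values are raw counts for 27179 genes in 60 libraries. Even values made up 73.85% of the counts of 1 to 20 and 50.48% of those above 1000, so each pair may have been counted as 2 reads, and halved counts were run as an alternative. Identifiers without a symbol (1904, with 0.539% of counts) were kept in the fits and not named. The 5 mice per group were separate animals.

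Tests used edgeR 4.0.16 under R 4.3.3 (legacy quasi-likelihood F test, M-value scaling, filterByExpr set to 10 counts and a total of 15), limma 3.58.1 and DESeq2 1.42.0. P values were adjusted by Benjamini and Hochberg over all genes tested. The script was tested on simulated data. The members and the 50 gene lists (1288 of 1289 entries matched) were chosen with earlier results of these data known. By the rule for named genes, up to 12 per direction with the largest change were to be taken among those past an adjusted p of 0.05 without overlap and with a mean of at least 5 CPM. As none passed, the 6 per direction with the smallest p were named, passing over predicted genes and with at most 3 antibody segments. Up to 4 members with the smallest p of each of 19 lists, the clock genes, Per2, Cldn4 and Jam3 (which the paper names), and up to 4 genes per direction for ZT0 against the other times were added. Some genes the rule takes are not reported here. Other lists are given by counts and medians. The other time points entered that test and the fit of 60 libraries alone.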

Additional observations from a re-analysis of the deposited data

Results flagged for a closer look

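In 220 groups of 5 values (named genes in CIA or naïve mice), 17 held a highest or lowest library whose gap to the nearest other exceeded 0.71 of the range (Dixon's criterion). The rate of about 1 in 20 under this criterion holds for independent normal values. Genes from the same libraries are not independent, so the 17 cannot be read against that rate. Naïve replicate 5 accounted for 6 of the 17. It was the highest of its group for the skeletal muscle genes Atp2a1 (19.3 CPM), Actn3 (5.51 CPM) and Tnni2 (6.09 CPM), for the carbonic anhydrase Car1 (7398 CPM) and for the clock factor Nfil3 (31.5 CPM), and the lowest for the water channel Aqp4 (201 CPM).

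CIA replicate 3 was the highest of its group for the IgA transporter Pigr (5032 CPM), the butyrate transporter Slc5a8 (207 CPM) and the clock repressor Per3 (23.2 CPM). CIA replicate 2 was the highest for Per1 (76.5 CPM), Cldn4 (148 CPM) and the early response gene Ier3 (26.6 CPM). Naïve replicate 4 was the highest for the antibody segment Ighv1-22 (13.8 CPM) and for villin, Vil1 (759 CPM). The remaining values were Igkv4-91 in CIA replicate 4 (78.4 CPM), Cry1 in CIA replicate 5 (61.3 CPM) and Nr1d2 in naïve replicate 2 (48.3 CPM). Their causes were not tested.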

How the results depend on the processing

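The count of genes past the threshold depended on the test and on a library. It was 0 higher and 0 lower in edgeR with other scaling factors, robust estimation, halved counts, no filter on low counts or a mean of at least 5 CPM, and at an adjusted p of 0.1. It was 584 and 150 in DESeq2, 582 and 114 in limma voom with quality weights (0.446 for CIA replicate 3 and 0.452 for naïve replicate 5), and 2 and 2 in a fit of all 60 libraries. With 1 library left out it ranged from 0 to 347 higher and from 0 to 100 lower, above 0 without CIA replicate 3 alone. The test of ZT0 against the other time points gave 0 genes in every alternative run. Halved counts gave 1966 higher and 733 lower genes at an unadjusted p under 0.05, against 1809 and 978.

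Among 110 genes named by the rule, 36 reversed under some alternative and 50 passed under some. These log2 fold changes reversed with the smooth muscle covariate: Elavl4 −0.16, Cdh19 −0.038, Sox10 −0.079, Col4a2 −0.13, Col5a3 −0.12, Col5a2 −0.15, Ckm −0.33, Slc5a8 0.33, Mpdz −0.15, Jam3 −0.13, Amotl1 −0.038, Gbp2 −0.18, Hspb8 −0.072, Hspb1 −0.34, Arntl 0.24, Arntl2 −0.028, Clock 0.18, Npas2 0.42, Per1 −0.30, Per3 0.28, Nr1d2 −0.041, Rora −0.31, Tef 0.092, Hlf −0.28, Nfil3 −0.35, Ciart −0.13, Csnk1d 0.060, Csnk1e −0.22, Cldn4 −0.061 and Ms4a7 −0.12. In limma voom with quality weights they were Per1 −0.12 and Cry2 −0.016, in the fit of 60 libraries Cry2 −0.015 and Ms4a7 −0.0090, and with halved counts Dbp 0.013. With 1 library left out the ranges that crossed 0 were Atp2a1 −2.77 to 0.11, Car1 −1.02 to 0.14, Blk −0.96 to 0.087, Clock −0.10 to 0.039, Per1 −0.34 to 0.23, Cry2 −0.11 to 0.12, Dbp −0.22 to 0.15, Nfil3 −0.059 to 0.36, Igkv4-91 −1.57 to 1.799 and Ms4a7 −0.16 to 0.12. The covariate is made from genes that differ between the groups, and its values do not overlap between them. The causes of the other changes were not tested.

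No pairing of the mice by replicate number was seen. Deviations from the group means of same-numbered CIA and naïve libraries correlated at −0.208, −0.0371, 0.0312, −0.0859 and 0.174, and 0 of 5 numbers correlated best with their own. So few correlations cannot exclude a pairing. With the replicate block, 0 genes were higher and 0 lower (1788 and 893 at an unadjusted p under 0.05), 0 passed for ZT0 against the other times, and Per1 (−0.023), Igkv4-91 (−0.036) and Ms4a7 (−0.050) changed sign.

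With 5 mice per group, the median SE of a log2 fold change was 0.16. Of the antibody segments 73 of 103 kappa and 60 of 120 heavy ones passed the filter on low counts and were tested.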
